A study of Phyllotreta striolata with 15 samples.

Results

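The genes described here were expressed at similar levels in eggs, pupae, female adults and male adults of the striped flea beetle, Phyllotreta striolata, and at a lower level in larvae. They were chosen on the authors' group means in TPM, a gene's share of all transcripts after scaling by gene length. A gene had to reach at least 5 TPM in each of the 4 non-larval groups, those 4 means had to lie under 3-fold apart, and the lowest of them had to be at least 2 times the larval mean. Of 11862 genes, 2495 were even across the 4 groups by the first 2 terms, and 311 of these (12.5%) also met the larval term. The 300 with the largest ratio of lowest other mean to larval mean, with 0.1 TPM added to each, were kept. The last 2 genes kept had ratios of 2.015 and 2.013, and the 2 next genes, which were left out, had ratios of 2.012 and 2.010.

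Whole bodies were sampled from larvae, eggs, pupae, female adults and male adults, with 3 libraries per group and no treatment or genotype named in the labels. Group and replicate number come from the sample titles. The series was made to find genes whose expression marks a stage or a sex. No label gives the age or instar of the larvae or whether animals were pooled. In whole bodies, fewer cells of a type and less RNA per cell cannot be told apart.

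The striped flea beetle is a leaf beetle with complete metamorphosis. Eggs are laid in soil near crucifer roots, the larvae feed on those roots and grow, the pupa rebuilds the body in the soil, and the adults feed on leaves and reproduce. In Drosophila melanogaster, much of larval growth comes from enlargement of polyploid cells, while the tissues that form the adult stay diploid and divide. Genes carry accession-like identifiers here, with no names in the files, so none is given a function and each is described by its levels.

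Library totals ran from 16509113 to 32598781 counts, and the 300 genes took 147102 to 1088633 counts of a library. All 300 were among the 11440 genes that passed the filter on low counts, and the least covered of them had 335 counts over the 12 non-larval libraries. CPM below is a gene's share of a library's counts on edgeR's TMM scale, which sets libraries level on most of their genes. Larva replicate 1 stood apart from the other larval libraries: 16.3% of all genes tested were 2-fold or more higher there than in the mean of larva replicates 2 and 3, and 4.54% were 2-fold or more lower. Counts of called genes are given with and without it. The column names of the count table carry 1 prefix for larvae and adults, another for eggs and another for pupae, so the prefix and the stage cannot be told apart between larvae and eggs or pupae, while larvae and adults share theirs. The labels call the replicates biological but do not tie them to separate collections, so calls measure the spread between these libraries.

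Most of the genes were reduced in larvae and not switched off. The median gene stood at 9.46 TPM in larvae, against 38.04 TPM in eggs, 34.6 TPM in pupae, 39.4 TPM in female adults and 29.8 TPM in male adults. The larval mean was a median of 40.7% of the lowest other group mean, and its lower and upper quartiles were 34.04% and 45.7%. The fold of the lowest other group over larvae was between 2 and 3 in 230 genes, between 3 and 5 in 54, between 5 and 10 in 13 and above 10 in 3. Only 3 genes were under 1 TPM in larvae by the authors' means, and none of the 300 lacked counts in all 3 larval libraries. These values chose the genes and are a description with no test.

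**Figure D1:**
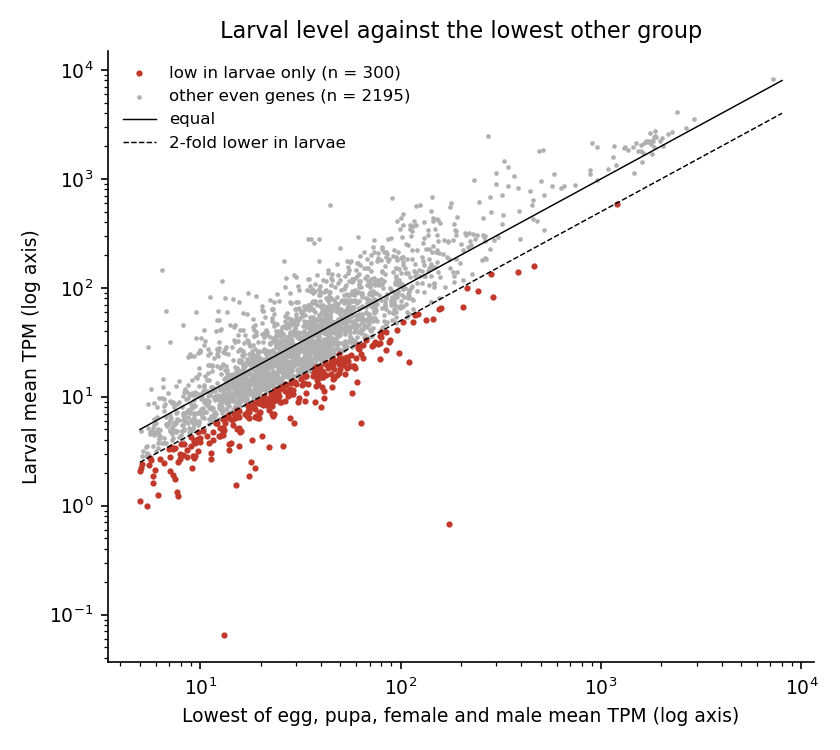
Larval mean TPM (log axis) against the lowest mean TPM of eggs, pupae, female adults and male adults (log axis), one point per gene for the 2495 genes that were even over those 4 groups. Most of the 300 genes low in larvae only lie just under the dashed line of a 2-fold lower larval mean, and 2 lie far below it, at 0.672 and 0.0654 TPM in larvae.

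The genes covered a wide range of levels. The lowest other group mean ran from 5.02 to 1205 TPM with a median of 24.5 TPM, against a median of 30.4 TPM in the 2184 even genes that did not meet the larval term. It was at least 100 TPM in 18 genes and under 10 TPM in 45. Across the 300 genes, Spearman's rho between the lowest other mean and the fold was -0.06, a description over genes that share libraries. Together the genes took 0.993 ± 0.223% of counts in larvae (SD, n = 3), against 3.29 ± 0.401% in eggs, 3.10 ± 0.217% in pupae, 3.10 ± 0.297% in female adults and 2.69 ± 0.0989% in male adults. None of the 300 is on the authors' lists of stage- and sex-specific genes, which hold 1129 identifiers in the authors' deposited table.

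In TPM, larvae were the second most frequent group to stand alone at the low end, and no such ranking is given on the TMM scale. With each group in turn taken as the low one under the same rule, 311 genes were low in larvae only and 375 in eggs only. The numbers were 199 in pupae only, 3 in female adults only and 13 in male adults only. Of the genes even over the other 4 groups in each case, these were 12.5%, 13.5%, 8.69%, 0.151% and 0.768%. For the opposite pattern in TPM, 35 of the 2495 genes even over the other 4 groups (1.40%) had a larval mean at least 2 times the highest other mean. The share was 13.1% for eggs, 7.47% for pupae, 6.29% for female adults and 0.827% for male adults. On the TMM scale, edgeR called 128 of the 2184 even genes outside the set (5.86%) higher in larvae than in each other group. That share rests on calls, leaves out the genes that met the rule, and is not given for the other groups. It therefore cannot be set against the 1.40%, and whether the larval share stays small on the TMM scale is not known. TPM is a closed share, and the median gene of the whole table stood at 12.4 TPM in larvae, against 18.5 TPM in eggs, 19.7 TPM in pupae, 30.2 TPM in female adults and 21.3 TPM in male adults. The part of this overall shift in the counts of genes low or high in larvae was not tested.

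The 2 genes with the largest larval reduction were nearly absent from larvae. CAH1137631.1 had 0.960, 0.137 and 0.474 CPM in the larval libraries, against 12.05, 195 and 9.85 CPM in eggs, 108, 31.7 and 126 CPM in pupae, 133, 47.5 and 125 CPM in female adults, and 181, 198 and 231 CPM in male adults. Every larval library lay under every other library, but the eggs were split, with egg replicate 2 more than 10 times as high as the other egg libraries. CAG9859507.1 had 0.611, 0 and 0 CPM in larvae, against 38.4, 18.7 and 28.4 CPM in eggs, 49.8, 54.3 and 39.6 CPM in pupae, 35.9, 29.1 and 35.6 CPM in female adults, and 19.0, 24.4 and 25.7 CPM in male adults. It had 7 counts in the larval libraries together, all in larva replicate 1, and its other groups were much tighter than those of CAH1137631.1. On edgeR's fit the log2 change of larvae against the mean of the other 4 groups was -7.77 (SE 1.31) for CAH1137631.1 and -7.62 (SE 0.944) for CAG9859507.1. Here and below, SE is an approximation. It is the size of the log2 change divided by the square root of the F value of edgeR's test. The value of CAG9859507.1 rests on larva replicate 1: it was -12.63 without that library, when no larval count was left and the fitted size is no measure of the change.

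The 2 genes with the highest CPM outside larvae, a scale that does not correct for length, showed the more usual partial reduction. CAG9854087.1 averaged 1697 ± 357 CPM over the 12 non-larval libraries (SD) and had 1263, 1105 and 728 CPM in larvae, against 1760, 1446 and 1553 CPM in eggs, 2464, 1909 and 2109 CPM in pupae, 1514, 1863 and 1416 CPM in female adults, and 1099, 1649 and 1582 CPM in male adults. Its highest larval library was above 1 male adult library, so the groups overlapped. CAG9863083.1 had 125, 346 and 600 CPM in larvae, against 1028, 960 and 1033 CPM in eggs, 1429, 1551 and 1693 CPM in pupae, 624, 496 and 1275 CPM in female adults, and 1122, 703 and 753 CPM in male adults. The larval libraries of this gene lay further apart than those of CAG9854087.1, and its highest larval library was above 1 female adult library. The fitted log2 change was -0.70 (SE 0.202) for CAG9854087.1, which missed the 2-fold call with TMM but was called at -1.18 with library size alone. It was -1.51 (SE 0.416) for CAG9863083.1, which was called, also at -1.11 without larva replicate 1.

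The 2 genes most even outside larvae were CAH1185168.1 and CAG9855616.1, whose 4 other group means in TPM lay 1.10-fold and 1.14-fold apart. CAH1185168.1 stood at 10.2 TPM in larvae, against 30.05 TPM in eggs, 27.8 TPM in pupae, 28.8 TPM in female adults and 27.4 TPM in male adults. On the TMM scale it had 49.2, 29.7 and 34.9 CPM in larvae, against 58.2, 80.7 and 58.8 CPM in eggs, 76.5, 67.7 and 75.9 CPM in pupae, 50.5, 51.0 and 52.2 CPM in female adults, and 58.7, 86.4 and 65.8 CPM in male adults. Every larval library was under every other library, with larva replicate 1 close to the female adults. CAG9855616.1 had 110, 146 and 114 CPM in larvae, against 105, 193 and 195 CPM in eggs, 177, 193 and 206 CPM in pupae, 146, 133 and 164 CPM in female adults, and 206, 232 and 190 CPM in male adults. Egg replicate 1 was under all 3 larval libraries here, and its larval mean was 45.9% of the lowest other group mean in TPM. The fitted log2 changes, -0.77 (SE 0.178) and -0.52 (SE 0.181), both missed the 2-fold call. Larva replicate 1 and the scaling decided this for CAH1185168.1, which reached -1.01 and was called without that library, and reached -1.23 and was called with library size alone. CAG9855616.1 reached -0.97 with library size alone and was not called.

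**Figure D2:**
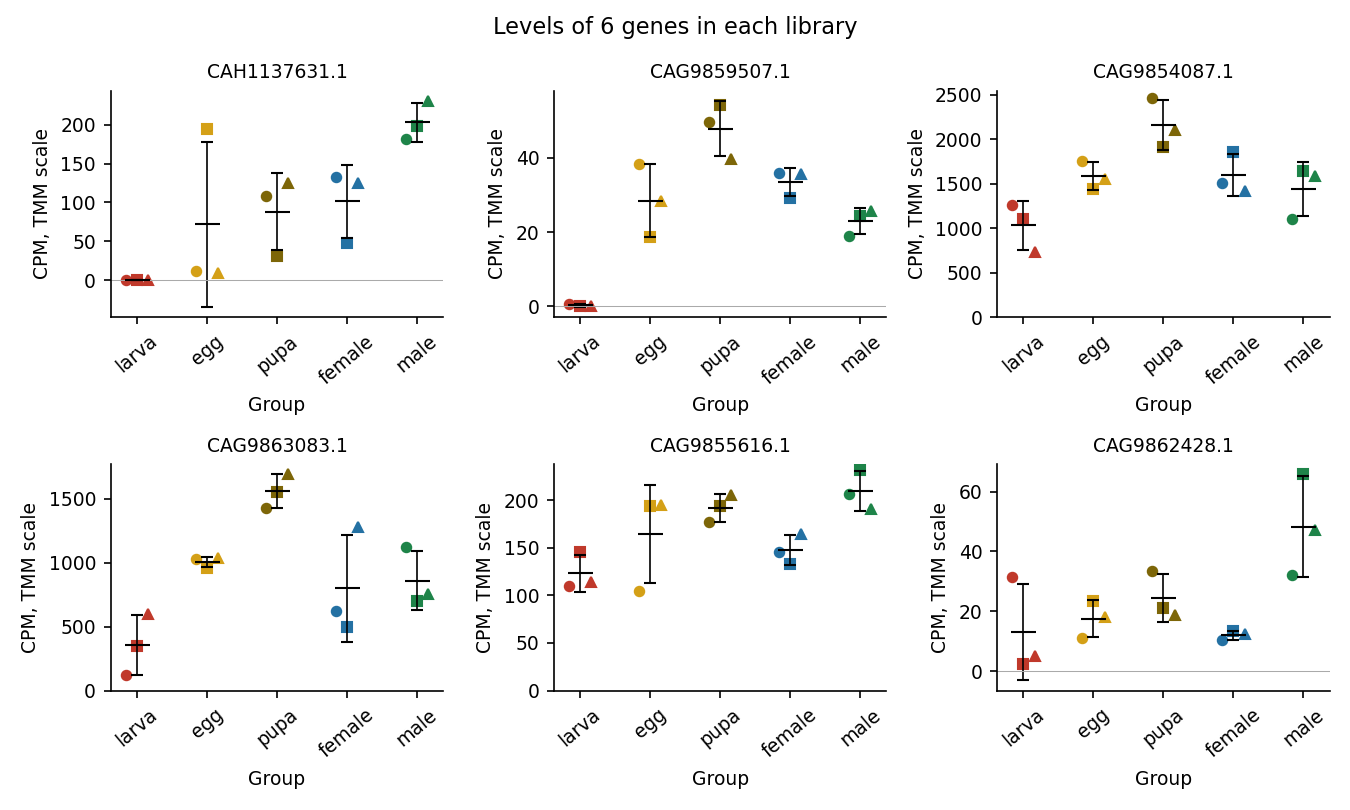
CPM on the TMM scale in each library (circle, square and triangle for replicates 1, 2 and 3) by group, with the mean as a black bar and the SD over 3 libraries as error bars, for the 2 genes with the largest larval reduction, the 2 with the highest CPM outside larvae, 1 of the 2 most even outside larvae and 1 gene that was high in larva replicate 1. CAH1137631.1 and CAG9859507.1 are near 0 CPM in all larval libraries, while the other 4 genes keep 2.47 CPM or more in each of them.

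How far the genes met their description depended on the scale. On edgeR's fit with TMM, the median log2 change of larvae against the mean of the other 4 groups was -1.14 over the 300 genes, 0.03 over the other even genes and -0.05 over all 11440 genes tested. With library size alone, the medians were -1.56, -0.41 and -0.50. The median of the 300 genes was 1.09 below that of all genes with TMM and 1.07 below it with library size alone, while the median of all genes moved by 0.45 between the scalings. A change of scaling moves all genes by nearly the same amount, so this gap had to stay. The choice of the genes set the gap, and nothing is read from it. Applied to group means of CPM, the rule itself returned 62 genes on the TMM scale, 51 of them among the 300, and 183 with library size alone, 167 of them among the 300. Without larva replicate 1 the TMM scale gave 98 genes, 71 of them among the 300. In the 51, the lowest other group mean was a median of 2.36 times the larval mean in CPM, and 42 had every larval library under every other library.

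**Figure D3:**
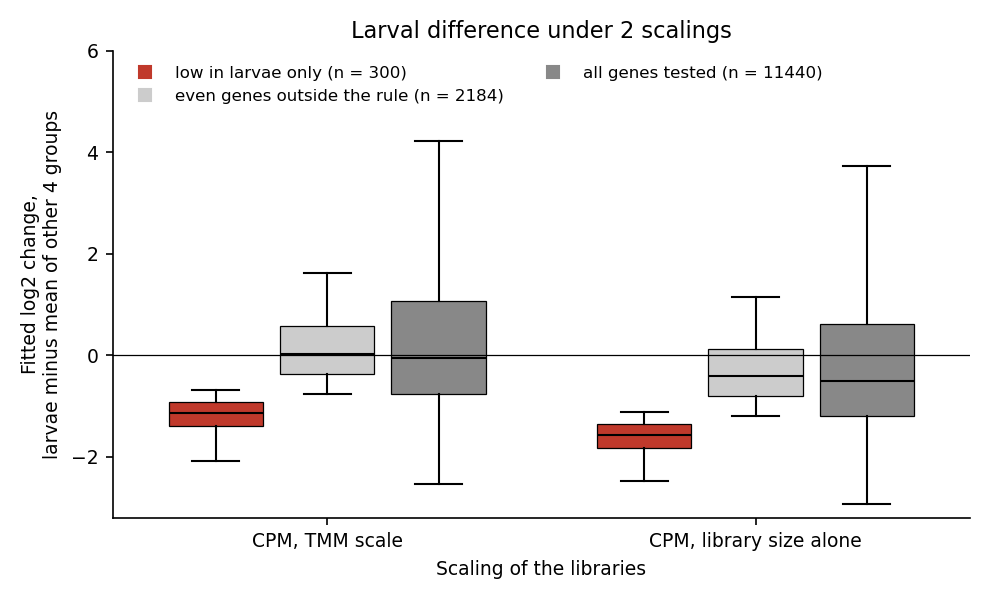
Fitted log2 change of larvae against the mean of the other 4 groups (edgeR) under TMM and under library size alone, for the 300 genes, the 2184 other even genes and all 11440 genes tested. Boxes span the quartiles with the median as a line, and whiskers run from the 5th to the 95th percentile. All 3 sets shift down together with library size alone, since a change of scaling moves all genes by nearly the same amount. The box of the 300 genes, which were chosen on low larval means, stays below the boxes of the even genes.

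Genes were called by edgeR at a Benjamini-Hochberg adjusted p under 0.05 and a fold of 2 or more. At those limits 188 of the 300 genes were called lower in larvae than in the mean of the other 4 groups and 0 higher, where 13.5% of all genes tested were called lower. The choice of the genes used this contrast, so nothing is read from the count. The count was 288 with library size alone, when 3061 of all genes tested were called lower, against 1549 with TMM. Without larva replicate 1 the count was 194 with TMM, when 2147 of all genes tested were called lower. The median log2 change was then -1.18 over the 300 genes and -0.33 over all genes tested. Against single groups, 183 were called lower in larvae than in eggs (27.3% of all genes tested), 196 lower than in pupae (20.3%), 130 lower than in female adults (16.5%) and 134 lower than in male adults (10.6%). The comparisons share their larval libraries. The 2 adult contrasts lie within 1 library prefix. Only 53 genes were called lower than in each of the 4 groups, where 1.37% of all genes tested were, and 0 were called higher than in each (4.97%). A further 26 were called lower against none of the 4. The count of 53 was 157 with library size alone, 32 with DESeq2 size factors and with the DESeq2 Wald test, and 35 when either egg replicate 2 or female adult replicate 1 was left out. Over all genes tested, 349 were called lower than each group with library size alone, against 157 with TMM. Without larva replicate 1 the count of 53 became 70, and 35 of these were among the 53. Over all genes tested, 278 were then called lower than each group, against 157 with all libraries.

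Single libraries were then set against each other. On the TMM scale, 156 of the 300 genes had every larval library under every one of the 12 other libraries, where 3.61% of all genes tested did. The genes were chosen on means of these same libraries, so nothing is read from the excess. With library size alone the count was 235, beside 7.84% of all genes tested, and with TPM rebuilt per library it was 260. Without larva replicate 1 it was 210 on the TMM scale. On an unchanged scale, leaving out a library can only keep or raise this count, so nothing is read from the rise. For the counts of 260 and 210 the share over all genes is not at hand. In 7 genes every other library was at least 2 times the highest larval library on the TMM scale. On that scale, overlap was most frequent with female adults and eggs. Female adult replicates 1, 2 and 3 were at or under the highest larval library in 68, 72 and 41 genes, and egg replicates 1, 2 and 3 in 48, 31 and 49. The numbers were 8, 17 and 8 for pupae, and 20, 14 and 14 for male adults. The lowest of the 12 libraries was a female adult one in 43, 54 and 23 genes for replicates 1, 2 and 3. This order belongs to the TMM scale. By group means, female adults were the lowest of the 4 groups in 127 genes on the TMM scale but in 42 in TPM, where male adults were the lowest in 137.

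**Figure D4:**
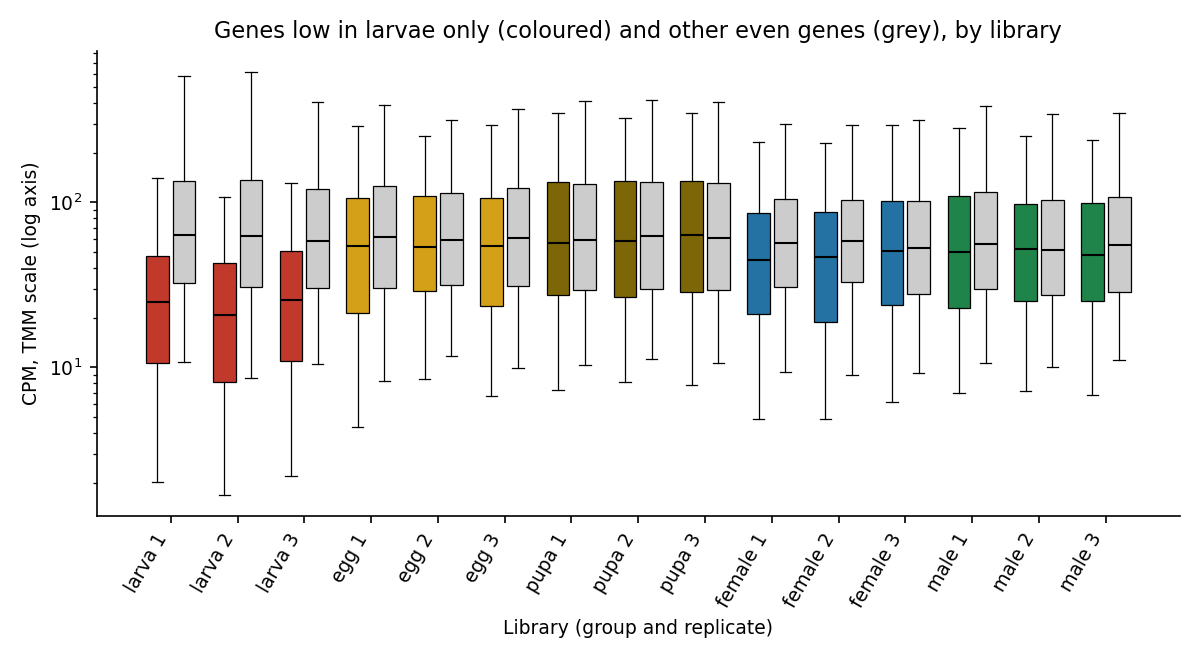
CPM on the TMM scale (log axis) in each library for the 300 genes (coloured by group) and the 2184 other even genes (grey), as boxes from the lower to the upper quartile with the median as a line and whiskers from the 5th to the 95th percentile. The coloured boxes of the 3 larval libraries have medians of 20.6 to 25.5 CPM, under those of all other libraries, which run from 44.6 to 63.2 CPM, while the grey boxes stay level.

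The larval libraries did not carry the reduction equally. On the TMM scale, larva replicate 2 was 2-fold or more below the lowest other group mean in 134 genes, larva replicate 1 in 93 and larva replicate 3 in 59. On TPM rebuilt per library, the numbers were 292, 251 and 157, and with library size alone 263, 209 and 96. Larva replicate 3 thus had the fewest on each of these 3 scales. It was still under the lowest other group mean in 280 genes on the TMM scale, and larva replicates 1 and 2 were in 253 and 295. The genes took 0.891%, 0.840% and 1.25% of counts in larva replicates 1, 2 and 3. Without larva replicate 3, the rule applied to rebuilt TPM returned 486 genes, 288 of them among the 300. Without larva replicate 1 it returned 295, of which 243 were among the 300, and without larva replicate 2 it returned 249, of which 239 were.

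**Figure D5:**
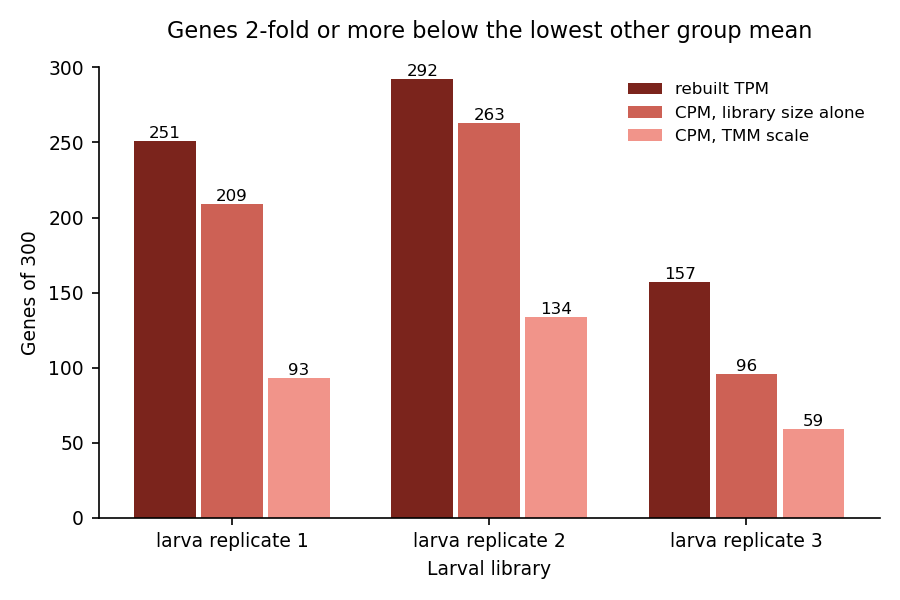
Number of the 300 genes that were 2-fold or more below the lowest of the 4 other group means in each larval library, on 3 scales. Larva replicate 2 has the tallest bar and larva replicate 3 the shortest on every scale, with 134 and 59 genes on the TMM scale.

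Larva replicate 1 lay close to the other larval libraries over the set as a whole. The median log2 difference between it and the mean of larva replicates 2 and 3 was -0.04 over the 300 genes and 0.10 over all genes tested, with 0.5 CPM added. Within the set, 35 genes were 2-fold or more higher in larva replicate 1 and 16 were 2-fold or more lower. The largest differences upward were in CAG9862428.1, at 31.6 CPM in larva replicate 1 and 2.47 and 5.31 CPM in the other 2, and in CAG9863433.1, at 17.5 CPM and 3.07 and 3.74 CPM. In both genes larva replicate 1 was close to the lowest male adult library, with 32.0, 65.7 and 47.0 CPM in males for CAG9862428.1 and 17.3, 27.3 and 23.9 CPM for CAG9863433.1. The largest differences downward were in CAG9864592.1, at 0 CPM in larva replicate 1 and 8.65 and 8.997 CPM in the others, and in CAG9854086.1, at 13.9 CPM and 47.7 and 138 CPM. CAG9864592.1 therefore met the rule while 2 of its larval libraries stood within the range of the eggs, at 12.2, 6.78 and 7.21 CPM, and of the female adults, at 7.55, 5.11 and 9.18 CPM. Of the 12 genes called lower in female than in male adults, 6 were 2-fold or more higher in larva replicate 1, and the median difference over the 12 was 0.89. Of all genes tested, 16.3% were 2-fold or more higher there. The share over all genes called lower in females is not at hand, so nothing particular to the set is read from the 6.

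Gene length moved with these values. Relative length, which can be rebuilt from the counts and the group means and is given in units of the median gene, had a median of 1.46 in the 300 genes and 1.29 in the other even genes. The longest quartile of all genes held 46.0% of the 300 and 37.5% of the other even genes. Of the even genes in the shortest quartile 7.30% were among the 300, and of those in the longest quartile 14.4% were. Over all genes tested, the median log2 change of larvae against the other 4 groups was 0.31 in the shortest quartile and -0.36 in the longest. Within the 300 genes it was -1.28 in the shortest quartile (26 genes) and -1.15 in the longest (138 genes). Larva replicate 1 also ran lower for long genes, with median differences from the other larval libraries of -0.15 in the longest quartile and 0.07 in the shortest over the 300 genes, and -0.12 and 0.21 over all genes tested. Larva replicate 3 ran higher for long genes, at 0.28 in the longest quartile and 0.13 in the shortest over the 300 genes. Over all genes tested its values were 0.07 and -0.20. CAG9863083.1 and CAG9854086.1 have relative lengths of 9.62 and 7.72, and 9.62 is the highest of the 300. They are 2 of 116 genes in which larva replicate 1 was the lowest larval library, so no link with length is read from them. The part of gene length in the larval reduction was not tested.

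The median spread between replicates was larger in the 300 genes than in the other even genes in all 5 groups, with no test of the difference. Among genes of 10 CPM or more in a group, the median coefficient of variation between replicates was 25.4% in larvae for the 300 genes and 20.5% for the other even genes. It was 19.4% and 18.1% in eggs, 9.29% and 7.96% in pupae, 15.4% and 13.3% in female adults, and 12.8% and 12.5% in male adults. Over all genes tested at that level, the medians were 25.1% in larvae, 23.01% in eggs, 11.4% in pupae, 18.5% in female adults and 16.1% in male adults. Egg libraries lay 5-fold or more apart in 16 of the 300 genes (5.33%) and in 1.79% of the other even genes, and egg replicate 2 was the highest in 12 of the 16. Without egg replicate 2, the rule on rebuilt TPM returned 271 genes, 253 of them among the 300.

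Outside larvae the rule held the 4 group means under 3-fold apart, and 133 of the 300 genes were under 2-fold apart. The highest of the 4 group means was a median of 2.09 times the lowest in TPM, against 2.26 in the other even genes, and 54 genes were under 1.5-fold apart. No call was made in 206 of the 300 genes (68.7%) in the 4 comparisons between non-larval groups below, against 62.5% of the other even genes and 19.7% of all genes tested. Which group was highest changed with the scale. In TPM, female adults were the highest of the 4 in 101 genes, eggs in 94, pupae in 83 and male adults in 22. On the TMM scale, pupae were the highest in 120, eggs in 94, male adults in 48 and female adults in 38. Female adults thus led in TPM and were the least often highest on the TMM scale. As the rule held these groups close together, the counts that follow are a description.

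Female and male adults differed in few of the genes. By edgeR's test 1 gene was called higher and 12 lower in females, where 11.7% and 15.9% of all genes tested were. With library size alone the majority turned, with 25 higher and 2 lower. It turned over all genes tested too, from 1342 higher and 1820 lower with TMM to 2122 higher and 1389 lower. The balance in the 300 genes also rested on single libraries. It was 11 higher and 10 lower without larva replicate 1, 11 and 8 without larva replicate 2 or 3, and 10 and 10 without egg replicate 2. It was 13 and 4 without female adult replicate 1, 8 and 3 without female adult replicate 2, 4 and 23 without female adult replicate 3, 6 and 11 without male adult replicate 1, and 13 and 5 without male adult replicate 2. The median log2 change of all genes between the sexes was -0.08 without larva replicate 1, 2 or 3, against -0.23 with all 15 libraries. In the other even genes it was 0.13 in each of these fits, against -0.02. No direction between the sexes is therefore read for the set. CAG9855654.1 had 12.8, 13.3 and 24.7 CPM in females, against 53.3, 85.6 and 48.5 CPM in males, a log2 change of -1.88 (SE 0.468). CAG9862428.1 had 10.4, 13.4 and 12.5 CPM in females, against 32.0, 65.7 and 47.0 CPM in males, a log2 change of -1.99 (SE 0.729). In both genes every female library was under every male one, and larva replicate 1, at 32.4 CPM for CAG9855654.1, was above all 3 female libraries. The call of CAG9862428.1 was lost in 11 of the 15 fits that left out 1 library, each of them a library of eggs, pupae or adults. It was also lost with library size alone, with no filter on low counts and with the replicate number as a block. CAG9858406.1, the gene called higher in females with TMM and all libraries, had 40.2, 49.5 and 46.9 CPM in females, against 23.8, 23.95 and 19.9 CPM in males, a log2 change of 1.01 (SE 0.206). It lay at the 2-fold limit, and its call was lost without female adult replicate 3 and without male adult replicate 3. It was also lost with DESeq2 size factors (0.88) and with the DESeq2 Wald test (0.89), each of which called 0 of the 300 genes higher in females.

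Pupae and eggs differed more often. On the TMM scale 36 genes were called higher and 12 lower in pupae, where 34.7% and 25.1% of all genes tested were. With library size alone the balance turned to 17 higher and 39 lower. Over all genes tested it went from 3966 higher and 2870 lower with TMM to 3426 and 3571. In the 300 genes the balance was even when 1 of several adult libraries was left out, with 21 higher and 21 lower without female adult replicate 1, 22 and 21 without female adult replicate 2, and 23 and 22 without male adult replicate 2. Over all genes tested the numbers in these fits were 3697 and 3188, 3711 and 3198, and 3706 and 3214. The median log2 change of all genes was 0.14 in each of them, against 0.30 with all libraries. In the 300 genes the balance without larva replicate 1 was 37 and 14. CAG9862826.1 had 143, 156 and 161 CPM in pupae, against 38.1, 57.8 and 33.4 CPM in eggs, a log2 change of 1.83 (SE 0.324). CAG9855096.1 had 81.1, 81.2 and 83.6 CPM in pupae, against 8.35, 48.9 and 8.37 CPM in eggs, a log2 change of 1.91 (SE 0.597), with egg replicate 2 again far above the other egg libraries. The change was 3.14 without egg replicate 2, and with library size alone it was 1.42 and not called. Egg replicates 1 and 3 were under every larval library, which had 11.96, 14.1 and 25.1 CPM. In the other direction, CAG9859993.1 had 42.9, 47.9 and 51.6 CPM in pupae, against 77.4, 117 and 161 CPM in eggs, a log2 change of -1.32 (SE 0.293). CAH1181039.1 had 11.4, 13.8 and 13.2 CPM in pupae, against 27.1, 33.4 and 34.2 CPM in eggs, a log2 change of -1.30 (SE 0.253), and its larval libraries, at 6.55, 4.62 and 8.68 CPM, were under both groups.

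Eggs begin development with RNA made in the mother's ovary. Between female adults and eggs, 2 genes were called higher and 26 lower in females, where 22.4% and 17.7% of all genes tested were. With library size alone the numbers were 5 and 14, when those over all genes tested were 2756 and 1656. On the TMM scale the numbers in the 300 genes were 10 and 40 without egg replicate 2, and 5 and 22 without larva replicate 1. CAG9857165.1 had 24.9, 20.2 and 26.01 CPM in females, against 64.4, 89.4 and 101 CPM in eggs, a log2 change of -1.84 (SE 0.322). CAG9861857.1 had 52.3, 45.5 and 63.8 CPM in females, against 182, 149 and 181 CPM in eggs, a log2 change of -1.66 (SE 0.184). On this scale neither gene was called lower in larvae than in females, since larvae had 40.1, 15.9 and 16.99 CPM of CAG9857165.1 and 40.9, 51.5 and 64.3 CPM of CAG9861857.1. CAG9856114.1 had 142, 162 and 172 CPM in females, against 58.1, 80.0 and 67.6 CPM in eggs, a log2 change of 1.21 (SE 0.192), and its larval libraries, at 43.9, 47.8 and 65.2 CPM, overlapped the eggs. CAG9859601.1 had 54.5, 80.2 and 82.5 CPM in females, against 40.1, 17.8 and 44.5 CPM in eggs, a log2 change of 1.08 (SE 0.293), which fell to 0.68 and was not called without egg replicate 2. Its call was also lost without female adult replicate 2, without female adult replicate 3 and without male adult replicate 2.

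Adults of both sexes were lower than pupae wherever a call was made on the TMM scale. The calls numbered 0 higher and 45 lower in adults, where 19.9% and 21.6% of all genes tested were. With library size alone 3 were higher and 14 lower, when 3120 of all genes tested were higher and 1868 lower. On the TMM scale without larva replicate 1, the numbers in the 300 genes were 0 and 47. CAH1161425.1 had 51.9, 53.3 and 36.7 CPM in female adults and 45.3, 54.7 and 67.4 CPM in male adults, against 257, 94.1 and 150 CPM in pupae, a log2 change of -1.70 (SE 0.276). CAG9859932.1 had 4.55, 3.97 and 12.1 CPM in female adults and 13.2, 12.3 and 11.6 CPM in male adults, against 19.5, 31.5 and 38.4 CPM in pupae, a log2 change of -1.69 (SE 0.613). The call of CAG9859932.1 was lost in 7 of the 15 fits that left out 1 library, each a library of pupae or adults, and with library size alone. Its egg libraries were again split, at 1.77, 29.0 and 18.0 CPM, with egg replicate 1 under every larval library, at 2.01, 2.93 and 4.68 CPM.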

How the data were processed

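RNA was total RNA from whole bodies, made into Illumina TruSeq libraries per the labels' protocols. Per the submitters' processing notes, fastp, HISAT2 and featureCounts were used. For versions, strand setting and genome build, no value is given in the sources used here. Read counts per gene for 15 libraries and TPM averaged over each group, per the file headers, were deposited by the authors. The genes and all rules used here were chosen with earlier results of these data known. TPM per library was rebuilt by solving for gene lengths that return the authors' group means from the counts. For 277 of the 300 genes all 5 means were returned within 1%. Counts were filtered with filterByExpr, scaled by TMM and fitted in 1 model of 5 groups with edgeR 4.0.16 (R 4.3.3), robust quasi-likelihood. Calls need a Benjamini-Hochberg adjusted p under 0.05 over 11440 genes and a fold of 2. The pipeline was tested on simulated data. Named genes are the 2 with the largest change per direction among called genes with no overlap between the sides and 10 CPM or more in the higher side, the 2 with the highest CPM outside larvae, the 2 most even, and the 2 per direction that differed most in larva replicate 1. Alternatives included DESeq2 1.42.0, library size alone and leaving out each library. Unmapped columns numbered 0. Replicates that share a number are not tied by any label. Deviations of same-numbered libraries from their group means correlated at 0.26 to 0.51 in all 3 pairs of larvae and pupae. They correlated at -0.30 to -0.19 in all 3 pairs of larvae and male adults. In these libraries larvae and pupae thus deviated together by number, and larvae and male adults in opposite directions. No other pair of groups had all 3 above 0.1, and over all groups the range was -0.30 to 0.51, with 10 of 30 cases in which a library correlated best with its own number.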

Additional observations from a re-analysis of the deposited data

How the results depend on the processing

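Of 200 alternative values for the counts and medians of the set, 150 stayed within their limits (1.5 times a count, or the spread between replicates) and 50 did not. The rule returned 70 genes at 3-fold over larvae, 139 with the other groups under 2-fold apart, 62 on CPM with TMM and 183 on CPM with library size alone, against 311. Leaving out 1 library gave 53 to 98 genes on the TMM scale and 249 to 486 on rebuilt TPM, an alternative chosen after seeing the data. With library size alone, 288 genes were called lower in larvae (188 with TMM), 157 lower than each group (53), 27 between the sexes (13) and 17 between adults and pupae (45). The genes lower than each group numbered 32 with DESeq2 size factors and 32 with the DESeq2 Wald test, which gave 23 between the sexes. Without a minimum fold the counts were 139 lower than each group, 63 between the sexes, 108 between pupae and eggs, 92 between female adults and eggs and 119 between adults and pupae. Leaving out 1 library gave 159 to 209 genes lower in larvae, 35 to 77 lower than each group, 9 to 27 between the sexes, 34 to 58 between pupae and eggs, 26 to 50 between female adults and eggs, and 35 to 48 between adults and pupae. Genes with no overlap numbered 235 with library size alone, 260 with rebuilt TPM and 156 to 210 without 1 library. On an unchanged scale, leaving out a library cannot lower this last count, yet its values are among the 150 that stayed. Genes 2-fold or more below the lowest other mean in larva replicates 1, 2 and 3 numbered 209, 263 and 96 with library size alone and 251, 292 and 157 with rebuilt TPM, and in larva replicate 3 34 with DESeq2 size factors. With library size alone the median coefficient of variation was 32.4% in larvae and 11.99% in pupae. The genes that met the rule at 3-fold took 0.148% of larval counts. The cause of these moves was not tested. Of 395 alternative values for the named genes, 0 reversed, 31 lost a call and 3 gained one. With the replicate number as a block, 191 genes were called lower in larvae, 53 lower than each group, 11 between the sexes, 49 between pupae and eggs, 26 between female adults and eggs and 43 between adults and pupae. The block left 195 genes lower in larvae than in pupae, against 196 without it, and it ended the call of CAG9862428.1 between the sexes. Depth limits CAG9859507.1 most, with 7 larval counts.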
